A study of Mus musculus with 12 samples.

Results

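The genes described are 9 transcription factors of the microglial lineage, Sall1, Spi1, Irf8, Mef2a, Mef2c, Maf, Cebpa, Runx1 and Smad3, which were taken by symbol from the 31053 genes of the deposited count matrices. All 9 were found, and all 9 passed the filter on low counts that left 9882 genes for testing. They were measured by droplet-based single-cell RNA sequencing of live CD45+/CD11b+ cells sorted from the whole brain of male C57BL/6J mice at postnatal day 90. The 12 libraries, which the study treats as biological replicates, formed 4 groups of 3. DNC-NONE brains were dissociated mechanically in a cold Dounce homogenizer without inhibitors, and DNC-INHIB brains in the same way with actinomycin D, triptolide and anisomycin, the first pair of which block transcription and the last translation. ENZ-NONE brains were digested with enzymes at 37 °C without inhibitors, and ENZ-INHIB brains were digested with the same inhibitor cocktail present. In both inhibitor groups inhibitors were also added at perfusion, there without anisomycin, and at dissection. In the digested groups only the digestion step was warm, and all other steps were on ice. No library came from a mutant animal.

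Macrophage identity is set by transcription factors that act in layers. Spi1 encodes PU.1, the pioneer factor of the myeloid lineage, and it works with partners such as Irf8 and Cebpa. Runx1 encodes a factor of definitive haematopoiesis that also acts in microglial progenitors. Mef2a and Mef2c encode MADS-box factors whose motif is common at enhancers active in microglia. Maf encodes c-Maf, a basic leucine zipper factor of resident macrophages. Smad3 carries the transforming growth factor-β (TGF-β) signal into the nucleus, and microglia depend on that signal in the adult brain. Sall1 encodes a zinc finger factor that is expressed in microglia but not in most other macrophages. Messenger RNAs of transcription factors often turn over fast, so their amount in a cell that can no longer transcribe is a way to look at loss during isolation.

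On GRCm38 the genes lie at chr8:89027235-89044162 (Sall1, minus strand), chr2:91082390-91115756 (Spi1, plus), chr8:120736358-120756694 (Irf8, plus), chr7:67231163-67372858 (Mef2a, minus), chr13:83504034-83667080 (Mef2c, plus), chr8:115682942-115707794 (Maf, minus), chr7:35119293-35121928 (Cebpa, plus), chr16:92601466-92826149 (Runx1, minus) and chr9:63646767-63757994 (Smad3, minus). An annotated gene overlaps 5 of the 9. Lysmd4, on the strand opposite to Mef2a, held 215 unique molecular identifiers (UMIs) against 10878 for Mef2a, and Gm15655, opposite to Maf, held 13 against 8654. The overlapping genes of Irf8, Cebpa and Runx1 held 0 UMIs.

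RefSeq promoter windows on GRCm38.p6, each running from 250 bases before a start site to 50 bases after it, were found for 7 of the 9 genes (13 windows, none for Spi1 and Maf). They were searched on both strands for 6 short motifs of factors among the 9 or close to them. The windows of 3 genes are shown: those of Mef2a and Runx1 hold letters that the factor of the same gene is known to bind, that of Sall1 holds letters bound by PU.1, and Runx1 and Sall1 carry the largest differences between libraries and cell classes reported below. Capitals mark the motif.
Mef2a, chr7:67372809-67373108, minus strand: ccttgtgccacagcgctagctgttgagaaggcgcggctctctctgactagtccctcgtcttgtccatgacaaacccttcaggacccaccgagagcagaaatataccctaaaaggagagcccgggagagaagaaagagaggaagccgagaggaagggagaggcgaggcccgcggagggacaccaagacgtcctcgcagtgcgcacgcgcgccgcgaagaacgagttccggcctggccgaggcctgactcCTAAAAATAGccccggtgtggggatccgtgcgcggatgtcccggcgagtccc
Runx1, chr16:92826025-92826324, minus strand: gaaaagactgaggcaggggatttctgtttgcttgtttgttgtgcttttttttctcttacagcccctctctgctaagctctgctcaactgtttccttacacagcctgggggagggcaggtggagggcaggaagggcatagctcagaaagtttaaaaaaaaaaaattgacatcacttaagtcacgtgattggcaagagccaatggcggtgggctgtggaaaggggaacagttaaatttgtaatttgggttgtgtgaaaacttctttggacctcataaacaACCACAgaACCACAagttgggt
Sall1, chr8:89042813-89043112, minus strand: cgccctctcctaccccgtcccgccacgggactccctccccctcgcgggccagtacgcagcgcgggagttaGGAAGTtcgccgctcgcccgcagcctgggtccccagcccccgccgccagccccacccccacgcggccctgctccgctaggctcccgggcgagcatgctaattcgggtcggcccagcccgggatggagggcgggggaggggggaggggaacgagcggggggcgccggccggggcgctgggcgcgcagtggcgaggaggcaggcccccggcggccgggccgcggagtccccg
The MEF2 motif (CTA and TAG with 4 letters between them) of the Mef2a window began 2 bases before the start site, ran past it, and was held by 3.69% of all 32851 windows. The RUNX core (TGTGGT, here on the opposite strand as ACCACA) began at 29 and at 37 bases after 1 of the 2 Runx1 start sites and was held by 16.8% of all windows. The core of the ETS motif (GGAAGT), the family to which PU.1 belongs, lay 180 bases before 1 of the 3 Sall1 start sites and was held by 23.8% of all windows. It was also found in 1 of the Mef2c windows, as was the AP-1 motif (TGANTCA, in 7.81% of all windows) in another. The C/EBP motif (TTGCNNCAA, 2.08% of all windows) and the paired interferon response motif (GAAA repeated with 2 letters between, 3.44%) were found in none of the 13. Apart from each palindrome's match to itself on the other strand, no match overlapped another.

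The deposited matrices held 28426 cells and 33742845 UMIs. After removal of cells with under 500 genes, under 1000 UMIs or over 10% mitochondrial UMIs, 18827 cells (66.2%) with 26846640 UMIs were kept, 853 to 2185 cells and 1059783 to 3233159 UMIs a library. All 10 microglial markers, among them Tmem119 and P2ry12, were detected in every library, with summed levels of 36077 to 41932 CPM (counts of a gene relative to all UMIs of the library, scaled to 1e6). Of the kept cells, 17897 were microglia-like by their cluster markers, 256 were border macrophage-like and 93 monocyte-like, while cells of other or no class made up the rest. DNC-NONE 1 held 33.3% of the monocyte-like cells and ENZ-INHIB 3 held 0. Any pair of libraries shared 2 to 16 deposited barcodes, and 236 of 18591 distinct kept barcodes occurred in more than 1 library. A pair of libraries stood apart. Summed over the 17 tested genes of the study's 19-gene activation list, which includes Fos and Jun, ENZ-NONE 6 reached 14165 CPM against 6406 and 5931 in ENZ-NONE 4 and 5, and DNC-NONE 1 reached 2649 against 979 to 1164 in the other 8 libraries.

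The first question was whether these factors lost RNA when transcription and translation were blocked through the warm digestion. The effect of either block on its own was not tested. None of the 9 passed the test in ENZ-INHIB against ENZ-NONE, whose protocols differ only in the inhibitors. Nor did any pass in ENZ-INHIB against DNC-INHIB, which differ in the warm digestion with transcription and translation blocked in both. Batch was not balanced in the first comparison: ENZ-INHIB had 1 library in the first batch and 2 in the second, and ENZ-NONE had 2 and 1. DNC-INHIB and DNC-NONE were split in the same way. The test held no batch term, and batch as a covariate was an alternative. The test was edgeR's quasi-likelihood test on the UMIs of all kept cells summed per library, with Benjamini-Hochberg adjustment over all 9882 genes and a threshold of 0.05. In the same fit 0.425% of all genes passed in the first comparison (42 genes, all lower with inhibitors) and 0.152% in the second (15 genes). Library levels are given below as CPM after trimmed-mean (TMM) scaling, and since the assay counts 3′ ends, levels are compared between samples and not between genes. In such sums fewer cells of a type and less RNA per cell cannot be told apart.

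Sall1 gave 415, 174 and 321 UMIs for the DNC-NONE libraries, 395, 465 and 600 for DNC-INHIB, 491, 294 and 391 for ENZ-NONE and 391, 490 and 434 for ENZ-INHIB. Scaled to the library these were 165, 162 and 178 CPM, then 184, 176 and 187, then 228, 192 and 151, and last 206, 187 and 172. All 4 groups overlapped in range with at least 1 other, and the highest and the lowest library were both ENZ-NONE. The mean of ENZ-INHIB was 188 ± 16.9 CPM (SD, n = 3), beside 191 ± 38.3 for ENZ-NONE and 183 ± 5.66 for DNC-INHIB. The fitted log2 fold change was -0.02 ± 0.12 (SE) for ENZ-INHIB against ENZ-NONE (edgeR quasi-likelihood adjusted p = 0.998) and 0.04 ± 0.12 against DNC-INHIB (adjusted p = 0.967). Its 95% interval in the second comparison ran from -0.21 to 0.29, so a loss of over 13.7% during blocked digestion lay outside it.

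Spi1 gave 1164, 489 and 948 UMIs for DNC-NONE, 901, 1208 and 1494 for DNC-INHIB, 1058, 717 and 1296 for ENZ-NONE and 802, 1345 and 1244 for ENZ-INHIB. In CPM these were 464, 457 and 526, then 420, 458 and 466, then 491, 469 and 502, then 422, 512 and 493. The ranges overlapped in each of the 4 comparisons of preparations. DNC-INHIB (420 to 466) lay below ENZ-NONE (469 to 502), a pair that was not compared. The fold change of ENZ-INHIB was -0.03 ± 0.09 (log2 ± SE) against ENZ-NONE and 0.09 ± 0.09 against DNC-INHIB, and the 95% interval of the latter began at -0.11, a loss of 7.15%.

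Irf8, the interferon regulatory factor that pairs with PU.1, spanned the narrowest range of the 9, from 689 CPM in DNC-NONE 1 to 811 in DNC-INHIB 6. The DNC-NONE libraries read 689, 748 and 747 CPM, the DNC-INHIB libraries 711, 786 and 811, and the digested ones 715, 759 and 785 in ENZ-NONE and 721, 737 and 795 in ENZ-INHIB. All groups overlapped. Its log2 fold change was -0.0036 with inhibitors in digestion and -0.04 for blocked digestion against blocked Dounce, both with an SE of 0.08.

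The MADS-box genes had their lowest mean in the Dounce preparation without inhibitors. Mef2a stood at 371, 378 and 359 CPM for DNC-NONE, 406, 412 and 384 for DNC-INHIB, 458, 443 and 417 for ENZ-NONE and 449, 413 and 407 for ENZ-INHIB. Every DNC-NONE library was below every library of the other 3 groups. Mef2a was the 1 member whose groups did not overlap in ENZ-NONE against DNC-NONE, beside 12.3% of all genes tested. Mef2c stood at 779, 827 and 827 for DNC-NONE, 892, 853 and 907 for DNC-INHIB, 986, 954 and 826 for ENZ-NONE and 938, 985 and 993 for ENZ-INHIB. ENZ-INHIB and DNC-INHIB did not overlap for Mef2c, with ENZ-INHIB the higher (log2 fold change 0.14 ± 0.08, adjusted p = 0.700), and the same held for no other member and for 15.5% of all genes in either direction. For ENZ-NONE against DNC-NONE, Mef2a had a log2 fold change of 0.25 ± 0.08 (unadjusted p = 0.0069, adjusted p = 0.306 by edgeR) and Mef2c of 0.18 ± 0.08 (adjusted p = 0.529), so neither passed once all genes were counted. Within the libraries of the first batch the Mef2a difference was 0.26 and within the second 0.22, and for Mef2c 0.27 and -0.0019.

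Maf stood at 327, 349 and 338 CPM for DNC-NONE, 352, 329 and 315 for DNC-INHIB, 340, 367 and 245 for ENZ-NONE and 319, 330 and 326 for ENZ-INHIB. ENZ-NONE 6 was the lowest of the 12, and the other 11 lay between 315 and 367. Cebpa, the C/EBPα gene, stood at 106, 103 and 135 for DNC-NONE, 128, 156 and 152 for DNC-INHIB, 137, 129 and 146 for ENZ-NONE and 106, 150 and 126 for ENZ-INHIB. Its largest difference between preparations, DNC-INHIB against DNC-NONE, was 0.34 ± 0.13 on the log2 scale (unadjusted p = 0.0202, adjusted p = 0.934 by edgeR), and the ranges overlapped. Smad3 was read from 26 to 86 UMIs a library and stood at 19.9, 24.3 and 24.4 CPM for DNC-NONE, 24.7, 18.6 and 26.8 for DNC-INHIB, 20.4, 18.3 and 20.9 for ENZ-NONE and 24.7, 22.1 and 24.6 for ENZ-INHIB. ENZ-INHIB lay above ENZ-NONE in all its libraries for Smad3, by 0.24 ± 0.17 (adjusted p = 0.969), the 1 member without overlap in that comparison beside 10.4% of all genes.

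Runx1 had the widest range of the 9, with 2.52 times between its lowest and highest library. It gave 260, 62 and 109 UMIs for DNC-NONE, 124, 166 and 192 for DNC-INHIB, 134, 89 and 350 for ENZ-NONE and 118, 147 and 136 for ENZ-INHIB. In CPM these were 104, 57.9 and 60.4, then 57.8, 62.9 and 59.9, then 62.2, 58.2 and 136, then 62.1, 56.0 and 53.9. DNC-NONE 1 and ENZ-NONE 6 were high, and the other 10 libraries lay between 53.9 and 62.9. The log2 fold change of ENZ-INHIB against ENZ-NONE was -0.62 ± 0.26 (unadjusted p = 0.0257, adjusted p = 0.916 by edgeR), and without ENZ-NONE 6 it was -0.08 (adjusted p = 0.996). Within the first batch, which lacks ENZ-NONE 6, the difference was 0.04, and within the second, where ENZ-NONE 6 is the only untreated digested library, it was -1.30. When no genes were filtered for low counts, Runx1 passed the test in this comparison (-0.61 ± 0.13, adjusted p = 2.37e-04 by edgeR), as did 164 of all 16402 genes then tested, Runx1 included. The fold change was nearly the same and the SE smaller, and ENZ-NONE 6 was in that fit. Against DNC-INHIB the fold change of ENZ-INHIB was -0.08 ± 0.26, an SE that comes from the spread over all 12 libraries. With DNC-NONE 1 and ENZ-NONE 6 left out of the fit, it was -0.08 ± 0.10 against DNC-INHIB and -0.09 ± 0.12 against ENZ-NONE.

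**Figure D1:**
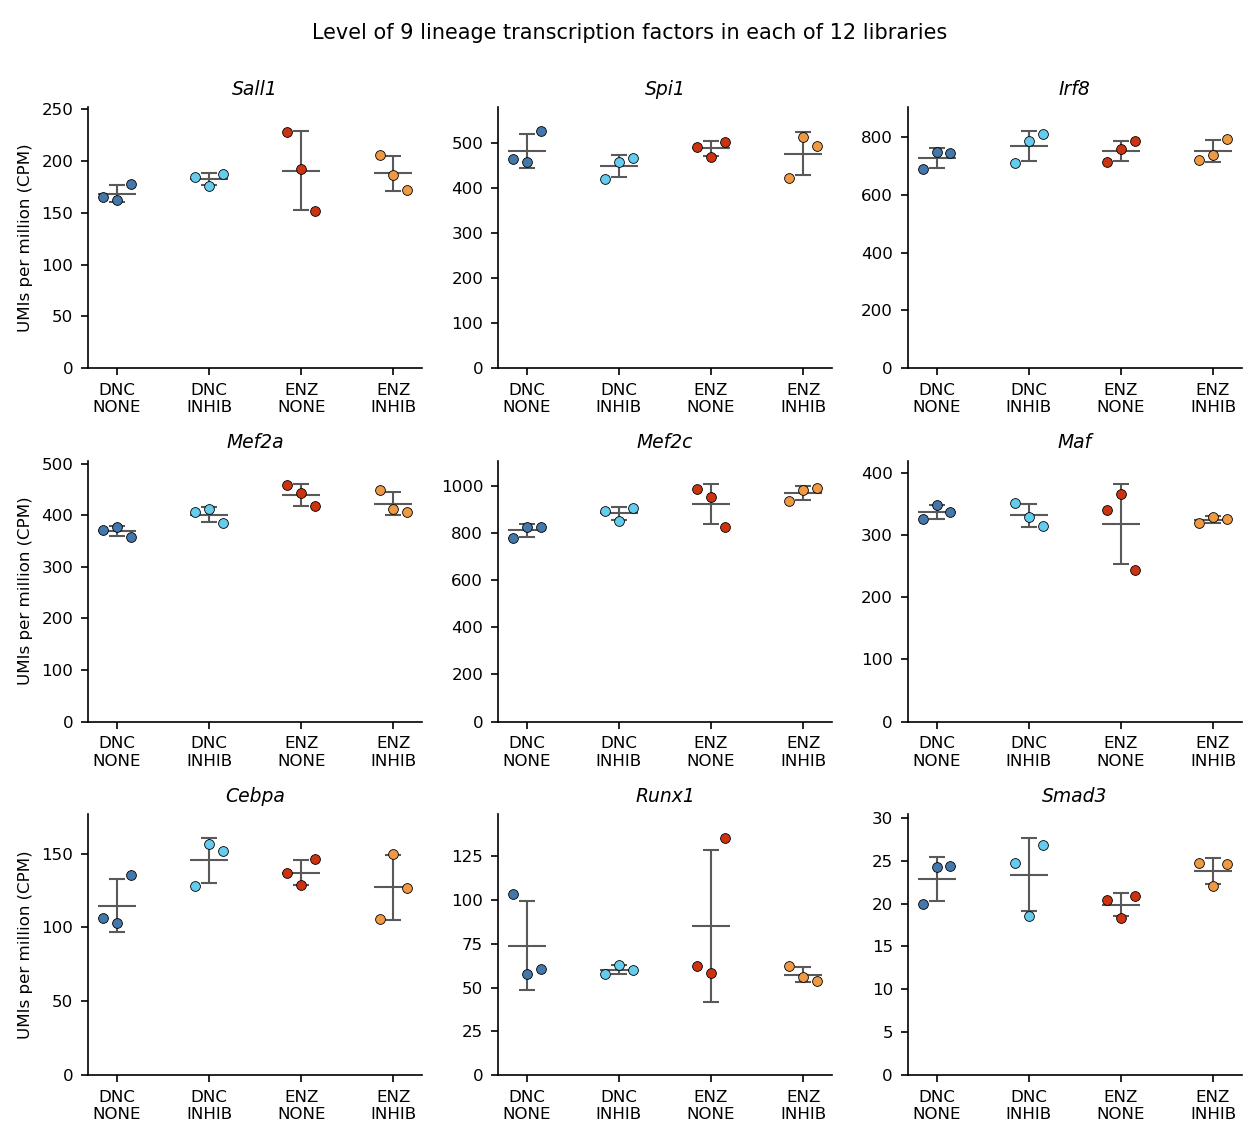
Level of each of the 9 genes (vertical axes, CPM after TMM scaling, each starting at 0) in the 12 libraries, by preparation. Points are libraries in the order of their replicate numbers, and bars are the mean ± SD of 3. Runx1 is high in DNC-NONE 1 (104) and ENZ-NONE 6 (136), while the other members spread by 1.18 to 1.52 times from the lowest to the highest library.

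The intervals set how large a loss could have gone unseen. For ENZ-INHIB against DNC-INHIB the 95% intervals left out losses of over 2.30% for Mef2c, 6.25% for Mef2a, 7.15% for Spi1, 13.3% for Irf8, 13.7% for Sall1, 17.1% for Maf, 19.9% for Smad3, 27.2% for Cebpa and 35.0% for Runx1. For ENZ-INHIB against ENZ-NONE the same bounds were 6.33% for Mef2c, 7.76% for Smad3, 11.5% for Irf8, 13.2% for Maf, 14.5% for Mef2a, 14.7% for Spi1, 17.3% for Sall1, 23.2% for Cebpa and 55.1% for Runx1. The Runx1 bounds rest on the spread that DNC-NONE 1 and ENZ-NONE 6 add, and without these libraries they were 18.4% against DNC-INHIB and 20.9% against ENZ-NONE. Other settings gave wider Runx1 bounds, up to 41.0% against DNC-INHIB (DESeq2) and 61.0% against ENZ-NONE (without ENZ-NONE 4). The bounds of the other members were read from the main fit only and would move with the setting. With single libraries left out, the Cebpa fold change against DNC-INHIB ran from -0.32 (without ENZ-INHIB 2) to -0.08 (without ENZ-INHIB 1). It was -0.19 in the main fit. All bounds are relative to the library total, since every value is a share of all UMIs of its library. Fos, an immediate early gene chosen after its values were seen, fell by 8.34 on the log2 scale in ENZ-INHIB against ENZ-NONE (edgeR adjusted p = 8.94e-06). The median log2 fold change of the 9 members was -0.02 with inhibitors in digestion and 0.02 for blocked digestion against blocked Dounce, beside 0.0034 and 0.0044 over all genes tested. TMM scaling holds the median over all genes near 0, so a loss shared by all genes would not show in it.

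Within the first batch, with 1 library a group, the difference of ENZ-INHIB from DNC-INHIB was 0.16 on the log2 scale for Sall1, 0.0060 for Spi1, -0.14 for Maf and -0.27 for Cebpa. Within the second, with 2 a group, it was -0.02 for Sall1, 0.12 for Spi1, 0.03 for Maf and -0.16 for Cebpa.

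**Figure D2:**
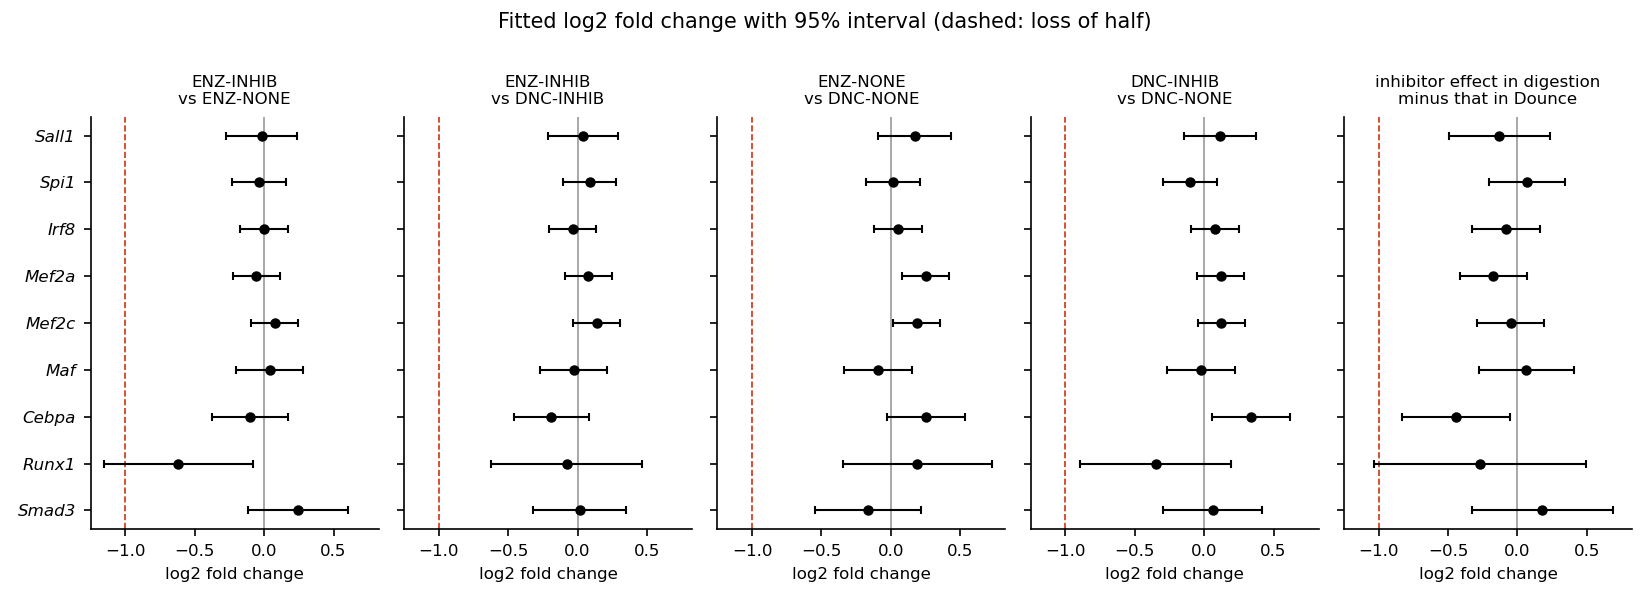
Fitted log2 fold change (horizontal axes) with its 95% interval for each of the 9 genes in the 4 comparisons of preparations and in the difference between the inhibitor effects. The dashed line at -1 marks a halving and lies inside the interval only for Runx1 in ENZ-INHIB vs ENZ-NONE and in the difference between inhibitor effects.

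None of the 9 passed in the other comparisons either. In ENZ-NONE against DNC-NONE, where 0.648% of all genes passed, 7 members had a higher and 2 a lower fitted value, with a median of 0.17 beside 0.0023 over all genes. In DNC-INHIB against DNC-NONE, 0% of all genes passed by edgeR, with 467 genes at an unadjusted p under 0.05 and 1 gene called by DESeq2, and the members ran from -0.35 (Runx1) to 0.34 (Cebpa). Mef2a and Mef2c were higher in every DNC-INHIB library than in every DNC-NONE library, by 0.12 each (edgeR adjusted p = 0.999 each), while 10.2% of all genes did not overlap between these groups in either direction. The difference between the inhibitor effect in digestion and that in Dounce, tested as an interaction, passed for 0.172% of all genes and no member. Its largest member value was -0.44 ± 0.19 for Cebpa (unadjusted p = 0.0284, adjusted p = 1.00 by edgeR). The comparisons share libraries, so their values are not independent of each other.

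The genes around these factors were read from 4 lists. Of the family paralogs 19 of 30 were tested, of the TGF-β pathway 17 of 23, of other myeloid transcription factors 26 of 35 and of the target and identity genes 22 of 22, which makes 83 of 109 distinct genes. The edgeR test passed 0 of the 83 in each of the 5 comparisons. Without DNC-NONE 1 and ENZ-NONE 6 it passed, of 84, 1 in ENZ-INHIB against ENZ-NONE (Smad7), 2 in ENZ-INHIB against DNC-INHIB (Smad7 and Tgif1) and 1 each in ENZ-NONE and in DNC-INHIB against DNC-NONE (Cebpe both times), where 0.436%, 0.649%, 0.954% and 0.142% of all genes passed. Without the filter on low counts it passed 6 of 102 in ENZ-INHIB against ENZ-NONE (Smad7, Cebpb, Cebpd, Id2, Cd14 and Bhlhe41), 3 in ENZ-INHIB against DNC-INHIB, 3 in ENZ-NONE against DNC-NONE, 1 in DNC-INHIB against DNC-NONE and 1 for the difference between inhibitor effects, beside 1.00%, 0.835%, 1.48%, 0.604% and 0.451% of all genes. With batch as a covariate 1 of 83 passed, Skil in ENZ-NONE against DNC-NONE (edgeR adjusted p = 0.00681). Cebpe was near the floor in the classes described below, with 7 UMIs in all microglia-like cells together. It had 0 UMIs in border macrophage-like and in monocyte-like cells. The list medians of ENZ-INHIB against DNC-INHIB were -0.06 for paralogs, -0.05 for the TGF-β pathway, 0.01 for other factors and 0.07 for target and identity genes. Of the following 3 genes, which were chosen after their values were seen, Smad7, the inhibitory Smad that TGF-β induces, had a log2 fold change of -0.65 ± 0.16 in ENZ-INHIB against ENZ-NONE (edgeR adjusted p = 0.128), and it passed without DNC-NONE 1 in the fit (-0.65, adjusted p = 0.00584) and with only the 2 groups compared. Tgif1, a co-repressor of Smad proteins, had -0.48 ± 0.11 in ENZ-INHIB against DNC-INHIB (edgeR adjusted p = 0.103). Tgfbr1, which encodes the type I TGF-β receptor upstream of Smad3, differed by 0.11 and 0.14 in the same pair of comparisons. As a measure of what the fit called in these libraries, 23 of 25 genes of the study's myeloid activation list fell in ENZ-INHIB against ENZ-NONE and 25 of 25 rose in ENZ-NONE against DNC-NONE. The study chose that list on these samples, so its direction is not independent evidence.

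The level in each cell class was then described, with no test, since the classes came from clusters of the same cells. The 9 genes were left out of the clustering. Values are again CPM, here the UMIs of a gene relative to all UMIs of the class over the 12 libraries, with exact 95% Poisson intervals that cover counting error only. Border macrophage-like cells were named from Mrc1, Pf4, Cd163, F13a1 and related markers, and clusters of 65 and 73 of these 256 cells were led as well by genes of antigen presentation such as H2-Aa and Cd74.

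Sall1 separated microglia from both other classes. It stood at 187 (182 to 193) in microglia-like cells from 4730 UMIs, at 23.8 (11.4 to 43.7) in border macrophage-like cells from 10 UMIs and at 5.30 (0.134 to 29.6) in monocyte-like cells from 1 UMI. The ratio of microglia to border macrophages was 7.88 (4.28 to 16.4), and microglia were the higher in 12 of 12 libraries. In 7 of the 12 libraries border macrophage-like cells held no Sall1 UMI, and DNC-INHIB 5 held 5 of the 10; without that library the ratio was 13.8. Of the same 10 UMIs 7 came from 1 small cluster of 24 cells, in which the median microglial marker stood at 0.570 of its level over all kept cells and the median cell held 2.05 times the median UMIs of its library. Without this cluster the ratio was 22.4 (7.67 to 109). The ratio of microglia to monocytes, on that 1 UMI, was 35.3 (6.33 to 1395).

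Mef2c, Mef2a and Irf8 were also higher in microglia, in 12 of 12 libraries against border macrophages. When cells were gated by markers in place of clusters, the counts were 11 of 12 for Mef2c, 10 for Mef2a and 12 for Irf8. Against monocytes, microglia were the higher in 11 of 11 libraries for Mef2c and Irf8 and in 9 of 11 for Mef2a. Mef2c stood at 917 in microglia-like, 556 in border macrophage-like and 74.3 in monocyte-like cells, so the ratio to monocytes was 12.3 (7.36 to 22.6). Mef2a stood at 414, 271 and 106, with a ratio to monocytes of 3.90 (2.53 to 6.40). Irf8 stood at 764, 418 and 217, with a ratio to monocytes of 3.52 (2.59 to 4.90).

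Maf ran the other way against border macrophages. It stood at 449 (387 to 518) there and at 327 (320 to 334) in microglia-like cells, higher in border macrophages in 9 of 12 libraries, and at 21.2 (5.78 to 54.3) in monocyte-like cells. Its ratio of microglia to monocytes was 15.4 (6.01 to 56.5), and 39.2 without DNC-NONE 1. When cells were gated by markers in place of clusters, border macrophages were the higher in 12 of 12 libraries and the ratio of microglia to them went from 0.727 to 0.515. With a coarser clustering (Leiden resolution 0.5) it went to 0.853 (0.738 to 0.991), with border macrophages the higher in 8 of 12. The clusters within the class differed: Maf stood at 687 (556 to 840) in one of 94 cells and at 306 (213 to 425), 356 (252 to 489) and 343 (213 to 525) in those of 65, 73 and 24 cells, intervals that all include the microglial level.

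Spi1 was present in all 3 classes, at 472 in microglia-like, 371 (315 to 434) in border macrophage-like and 557 (455 to 674) in monocyte-like cells, and it was lower in microglia than in monocytes in 7 of the 11 libraries that held monocytes. The interval of its ratio of microglia to monocytes, 0.700 to 1.04, included equal levels, as did that with the coarser clustering (0.707 to 1.04). With cells gated by markers the ratio was 0.763 (0.660 to 0.886), which left out equal levels. Microglia were then the lower in 8 of 12 libraries. Runx1 stood at 71.0, 73.7 (50.1 to 105) and 53.0 (25.4 to 97.5), higher in microglia than in border macrophages in 6 of 12 libraries, and the direction of that small difference changed with the clustering. Cebpa stood at 136, 87.9 (61.9 to 121) and 21.2 (5.78 to 54.3), the last from 4 UMIs, so its ratio to monocytes of 6.41 went to 4.18 without DNC-NONE 1 and to 12.1 without DNC-NONE 3. Cebpb, its paralog, had the reverse order at 574, 773 and 3034. Smad3 stood at 23.2, 9.51 (2.59 to 24.3, 4 UMIs) and 10.6 (1.28 to 38.3, 2 UMIs), and at this depth a difference between the classes was not detectable. Tgfbr1 stood at 841 in microglia-like, 297 in border macrophage-like and 90.2 in monocyte-like cells.

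**Figure D3:**
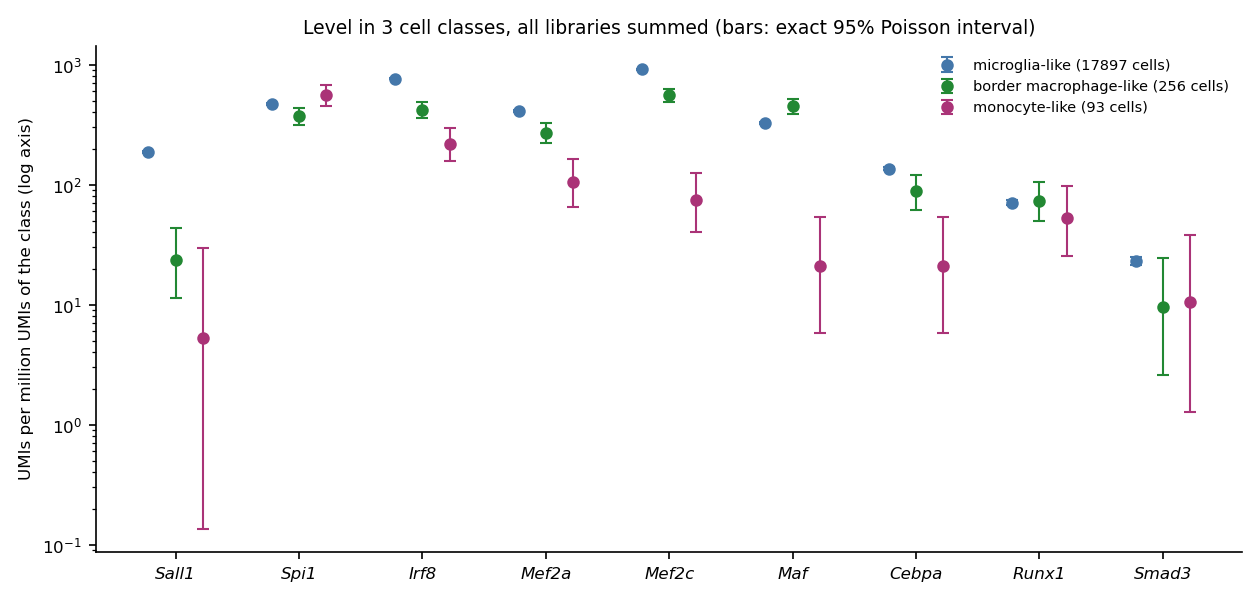
Level of each gene (vertical log axis, CPM of the class, all 12 libraries summed) in microglia-like, border macrophage-like and monocyte-like cells. Bars are exact 95% Poisson intervals. Sall1 spans 187 to 5.30 across the classes, the Maf interval of border macrophages (387 to 518) lies above that of microglia (320 to 334), and the intervals of Runx1 overlap in all 3 classes.

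The share of cells with at least 1 UMI of a gene was read after every cell was thinned to 1000 UMIs, which left out no cell. Sall1 was seen in 16.9% of microglia-like cells (exact binomial 95% interval 16.3 to 17.4), in 1.56% (0.427 to 3.95) of border macrophage-like cells and in 0 of 93 monocyte-like cells, which allows a share of up to 3.89%. The part of free RNA in these low shares was not tested. Unthinned, at median depths of 1333, 1486 and 1983 UMIs, the shares were 22.5% and 3.52%, and 1 of the 93 monocyte-like cells. Mef2c was seen in 58.3%, 44.1% and 7.53% of thinned cells, Spi1 in 36.8%, 28.9% and 43.0%, and Maf in 27.3%, 36.3% and 1 of 93 cells. By preparation, the thinned share of microglia-like cells with Sall1 was 16.3% ± 0.389 (SD, n = 3) in DNC-NONE, 16.8% ± 0.359 in DNC-INHIB, 17.7% ± 2.93 in ENZ-NONE and 16.9% ± 1.88 in ENZ-INHIB, differences within the spread of ENZ-NONE and ENZ-INHIB.

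The microglia-like cells held 2 clusters that were read separately, which, like the classes, are described with no test. The first, 208 cells led by Lpl, Ccl4 and Ccl3 (a lipase and chemokines), held Sall1 at 79.5 CPM against 189 in all other microglia-like cells, a ratio of 0.421 (0.282 to 0.606) and lower in 12 of 12 libraries. The median microglial marker of the cluster stood at 0.761 of its level over all kept cells, and the part of this in the Sall1 level was not tested. Mef2a was lower there in 11 of 12 libraries (315 against 416), Mef2c in 9 of 12 (749 against 919, a ratio of 0.815 with an interval of 0.720 to 0.918), and Spi1 and Irf8 had ratios of 0.905 and 1.01, both with intervals that included 1. The second, 1810 cells led by Fos, Dusp1, Socs3 and Egr1, came to 50.8% from ENZ-NONE 6. Runx1 stood at 132 there against 63.7 in other microglia-like cells, higher in 9 of 12 libraries, while Maf (263 against 334), Sall1 (154 against 191) and Mef2c (805 against 930) were lower in 7, in 6 and in 9 of 12. Without ENZ-NONE 6 the ratios to other microglia-like cells were 0.981 (0.886 to 1.08) for Maf, 0.923 (0.801 to 1.06) for Sall1, 0.926 (0.870 to 0.985) for Mef2c and 1.62 (1.33 to 1.95) for Runx1, so that the Maf and Sall1 intervals included 1. Without DNC-NONE 1 as well, the Runx1 ratio was 1.28 (0.970 to 1.66) and the Mef2c ratio 0.934 (0.865 to 1.01).

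The high Runx1 of DNC-NONE 1 and ENZ-NONE 6 was present on both sides of that cluster. Among microglia-like cells outside it, Runx1 stood at 97.7 (84.1 to 113) in DNC-NONE 1 and at 96.0 (78.5 to 116) in ENZ-NONE 6, against 51.8 to 64.1 in the other 10 libraries. Inside it the values were 148 (114 to 189) and 160 (140 to 182), against 15.1 to 124 in the other 10, which held 17 to 86 cells of the cluster each. Socs3, the feedback inhibitor of cytokine signalling, was at 328 and 1041 CPM in the same pair of libraries against 24.2 to 120 in the other 10, and Stat3 at 191 and 196 against 91.5 to 122. Both were chosen after their values were seen. What set these libraries apart was not tested.

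**Figure D4:**
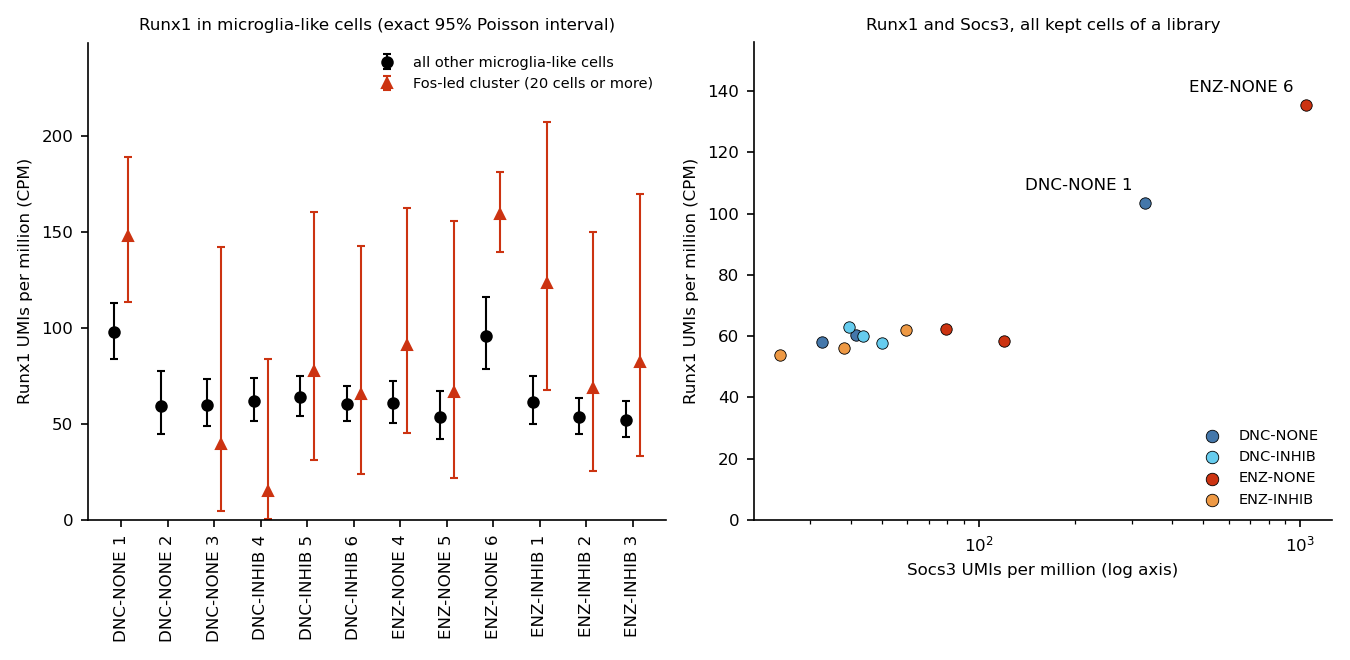
Left, Runx1 (vertical axis, CPM, exact 95% Poisson interval) in each library among microglia-like cells of the Fos-led cluster (triangles, where it held 20 cells or more) and among all other microglia-like cells (circles). Right, Runx1 against Socs3 (horizontal log axis) over all kept cells of each library. DNC-NONE 1 and ENZ-NONE 6 stand above the other 10 libraries, which lie between 53.9 and 62.9 for Runx1.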

How the data were processed

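Gene by cell UMI count matrices of 12 libraries were used as deposited. According to the study's methods and the submitters' processing notes, the authors demultiplexed the reads with bcl2fastq and made the counts with Cell Ranger 3.0.0 on the mm10 (GRCm38) genome from 10X Genomics 3′ libraries, with molecules counted by UMI, so the deposited counts are raw and not normalized. Cells of other tissues in the study were not analysed here.

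Cells under 500 genes or 1000 UMIs, or over 10% mitochondrial UMIs, were left out, and 3 marker doublets were removed (Scrublet, called through scanpy 1.11.5, was an alternative and removed 376 cells). Cells were clustered on 2000 variable genes without the 9 members (30 principal components, 20 neighbours, Leiden resolution 1) and named from marker lists. This is a rebuilt annotation, not the authors'. UMIs of all kept cells were summed per library and tested with edgeR 4.0.16 (quasi-likelihood F-test, TMM scaling, filterByExpr, all 12 libraries, 1 mean per group) in R 4.3.3. Adjusted p-values are Benjamini-Hochberg over 9882 genes and were called under 0.05. Depth was 1059783 to 3233159 kept UMIs a library, and intervals on class levels, ratios and shares are exact, cover counting error only and have no replicate term. On simulated counts the fit recovered 100% of 100 genes changed by 2 on the log2 scale and 96% of 100 changed by 1 in ENZ-INHIB against ENZ-NONE, with 14 false calls over 9752 genes. The changed genes were drawn from those with over 30 expected UMIs in an average library. Their spread followed the trend over all genes, and no outlying library was simulated. Changes under 1 on the log2 scale were not simulated. Promoter windows came from RefSeq (GRCm38.p6).

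The members, gene lists and comparisons were chosen with earlier results of these data known. All 9 members were named in every comparison, and any other gene named alone was chosen after its values were seen. Alternatives were DESeq2 1.42.0, no filter on low counts, looser cell filters, microglia-like cells alone, batch as a covariate, only the 2 groups compared, and each library left out. Leaving out DNC-NONE 1 and ENZ-NONE 6 together, class levels without the cluster of 24 cells, and levels in the Fos-led cluster without ENZ-NONE 6 or without both libraries, were added after seeing the data.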

Additional observations from a re-analysis of the deposited data

Results flagged for a closer look

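The effect of the inhibitors differed between digestion and Dounce for 17 of 9882 genes, all with the lower value in digestion, when the difference was tested as an interaction with edgeR's quasi-likelihood test. None of the 9 factors was among them, and 15 of the 17 belonged to the myeloid activation list that the study chose on these samples. The value nearest to a call among the 9 was that of Cebpa, at -0.44 ± 0.19 on the log2 scale (unadjusted p = 0.0284). Groups of 3 libraries are too small for a test of single outlying samples.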

How the results depend on the processing

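No paired analysis was possible because the groups compared share no replicate numbers in the labels. None of the 9 factors passed in any comparison under any alternative, except Runx1 in ENZ-INHIB against ENZ-NONE without the filter on low counts, where 1 member passed. Without that filter 164 of 16402 genes passed there, 137 in ENZ-INHIB against DNC-INHIB, 242 in ENZ-NONE against DNC-NONE, 99 in DNC-INHIB against DNC-NONE and 74 for the difference between inhibitor effects. In ENZ-INHIB against DNC-INHIB 24 genes passed in microglia-like cells alone, 34 with batch as a covariate, 41 with only the 2 groups compared and 64 without DNC-NONE 1 and ENZ-NONE 6, against 15. In DNC-INHIB against DNC-NONE, where edgeR passed 0, DESeq2 passed 1, microglia-like cells alone 1, batch as a covariate 2, only the 2 groups 3 and the fit without those libraries 14. In ENZ-NONE against DNC-NONE only the 2 groups gave 39 against 64, and without the pair of libraries the difference between inhibitor effects gave 28 against 17. With single libraries left out, the counts ran from 2 (without DNC-INHIB 5) to 25 (without DNC-NONE 1) in ENZ-INHIB against DNC-INHIB, from 0 to 2 in DNC-INHIB against DNC-NONE, and from 7 to 19 for the difference between inhibitor effects.

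Of 936 alternative log2 fold changes of members, 43 changed sign, none of which passed the test. For ENZ-INHIB against ENZ-NONE these were Sall1 with batch as a covariate (0.035), Irf8 without the count filter (0.0026) and, without DNC-NONE 1 and ENZ-NONE 6, Irf8 (0.026), Mef2c (-0.00017) and Maf (-0.12). Smad3 gave -0.060 in ENZ-INHIB against DNC-INHIB with looser cell filters. Without the same pair of libraries Spi1 gave -0.036, Irf8 -0.020 and Maf 0.043 in ENZ-NONE against DNC-NONE, Runx1 0.021 and Smad3 -0.053 in DNC-INHIB against DNC-NONE, and Maf -0.073 for the difference between inhibitor effects. Maf gave 0.023 in DNC-INHIB against DNC-NONE with batch as a covariate. With single libraries left out, the values that crossed 0 ran, in ENZ-INHIB against ENZ-NONE, from -0.17 to 0.14 for Sall1, -0.091 to 0.042 for Spi1, -0.046 to 0.026 for Irf8, -0.000054 to 0.13 for Mef2c, -0.12 to 0.15 for Maf and -0.24 to 0.0046 for Cebpa. In ENZ-INHIB against DNC-INHIB they ran from -0.028 to 0.10 for Sall1, -0.090 to 0.00064 for Irf8, -0.070 to 0.014 for Maf and -0.13 to 0.14 for Smad3. In ENZ-NONE against DNC-NONE they ran from -0.020 to 0.087 for Spi1, -0.20 to 0.070 for Maf and -0.35 to 0.57 for Runx1. In DNC-INHIB against DNC-NONE they ran from -0.067 to 0.016 for Maf, -0.49 to 0.022 for Runx1 and -0.063 to 0.20 for Smad3. For the difference between inhibitor effects they ran from -0.28 to 0.021 for Sall1, -0.0032 to 0.14 for Spi1, -0.13 to 0.00098 for Mef2c, -0.10 to 0.17 for Maf and -0.65 to 0.27 for Runx1. The causes were not tested. Smad3, read from 26 to 86 UMIs a library, and all values in the 93 monocyte-like cells are limited by depth.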

Other observations

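Dendritic-like cells (60 cells) held Spi1 at 642 CPM of the class, Irf8 at 356 and Mef2c at 204, with 1 UMI of Sall1. The 398 interferon-responsive-like cells, a state of microglia with high interferon-induced genes, held Sall1 at 187, Spi1 at 450 and Irf8 at 775, beside 187, 472 and 764 in microglia-like cells. In the TGF-β pathway, Smad7 stood at 80.5 in microglia-like cells and at 21.4 and 21.2 in border macrophage-like and monocyte-like cells. Ets1, an ETS factor, stood at 86.3 in microglia-like and 9.51 in border macrophage-like cells, and Sall3, the paralog of Sall1, at 60.2 and 2.38, while neither had a UMI in monocyte-like cells. Runx3 ran the other way, from 0.119 in microglia-like cells to 33.3 and 47.7 in border macrophage-like and monocyte-like cells. These genes were chosen after their values were seen.

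The gene whose log2 level over the 12 libraries was most like that of Runx1 was Sbno2 (Pearson r = 0.98 over 12 libraries), at 110 and 180 CPM in DNC-NONE 1 and ENZ-NONE 6 against 40.4 to 60.5 in the other 10. Without these libraries r was 0.66 over 10. Irf2bpl had r = 0.97, and 0.63 without them. The libraries share their high activation genes, so these values are descriptions only. Pim1 was at 74.1 and 131 CPM in the same pair of libraries, with 14.7 the lowest of the other 10, and Cebpb at 890 and 1332 against 370 to 613. All were chosen after the Runx1 values were seen.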
